A study of Mus musculus with 17 samples.

Results

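The comparison described here set 6 hippocampal RNA-seq libraries from epileptic mice treated with sgKcna1 against 6 from epileptic mice treated with sgLacZ, 12 of the 17 libraries in the series. The libraries were taken by group label alone, and the remaining 5, from sham control mice treated with sgLacZ, entered the fit only to share its estimate of spread between samples. All mice were adult C57BL/6J, male and female. Epileptic mice had received kainic acid in the right amygdala, which causes status epilepticus followed by spontaneous seizures, and 1 week later both epileptic groups received AAV9 vectors in the right ventral hippocampus. One vector carried dCas9-VP64, a Cas9 without nuclease activity joined to a transcriptional activator, under a doxycycline-responsive promoter. The other carried the guide RNA together with the doxycycline-dependent transactivator and the tdTomato reporter, driven by the Camk2a promoter, which is active mainly in excitatory neurons. All groups, sham controls included, carried these vectors and ate doxycycline food for 2 weeks before the hippocampi were collected. The groups thus differed in the guide, sgKcna1 (Kcna1-dCas9A) or sgLacZ (Ctrl-dCas9A), which targets a bacterial gene. The labels do not say whether a library holds 1 animal or a pool, so P values measure only the spread between these samples.

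Kcna1 encodes Kv1.1, a voltage-gated potassium channel subunit found mainly along axons and at their terminals. Kv1.1 assembles with other Kv1 subunits and with cytoplasmic beta subunits, and the current it carries limits repetitive firing and transmitter release. In CRISPR activation (CRISPRa), dCas9 with an activator is brought to a promoter by its guide and raises transcription without cutting the DNA.

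The sequence that defines the sgKcna1 group is the guide target upstream of Kcna1, shown because every comparison below rests on it. It occurred once in the mm9 mouse genome, on the plus strand at chr6:126595930-126595949, 111 to 130 bases upstream of the annotated start of Kcna1, which lies on the minus strand at 126595819. The capitals mark the adjacent PAM, which Cas9 needs for binding.
sgKcna1 target: agtcaatgatcacatcctccTGG

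Of 27025 genes with a RefSeq promoter window (250 bases before to 50 after the gene start, GRCm38.p6), 37 had a site with a PAM and at most 6 mismatches to the guide, and none of these windows had fewer than 4. Kcna1 was not among the genes with a window. Among the 12 of these genes that were tested, 2 had an unadjusted P under 0.05 with all libraries and 1 without sgKcna1 replicate 12. Over all genes tested, 8.69% were higher and 10.5% lower at that level with all libraries, and 5.63% and 9.59% without replicate 12, so the share among these 12 genes was not above that of all genes. Ubr3, a ubiquitin ligase and the only tested gene with 5 mismatches, had a mean of 120 CPM in sgKcna1 and 130 in sgLacZ libraries (log2 fold change -0.12, SE 0.09, edgeR adjusted P = 0.46). CPM are read counts scaled to library size after TMM adjustment throughout. Its best site is shown for comparison with the guide, with mismatched bases and the PAM in capitals.
Ubr3 site: agtcaatTCCcCcaCcctccCGG

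For 6 other genes the study had predicted binding of the guide close to the promoter. Gc was too low to test. None of the 5 that passed the filter on low counts reached an unadjusted P of 0.05 in edgeR with all libraries. Log2 fold changes of these 5 were 0.33 for Nudcd2, 0.14 for Vps16, 0.48 for Efcab4a, 0.01 for Mylpf and -0.03 for Pde4b. Nudcd2 came close (edgeR unadjusted P = 0.051), with DESeq2 unadjusted P = 0.048 (adjusted P = 0.23). Without sgLacZ replicate 5 its edgeR unadjusted P was 0.014, and with the unmapped share as a covariate its log2 fold change was 0.13. Efcab4a shares its reads with a gene on the other strand and is uncertain. Mylpf shares some reads too and was low, at 0.477 to 1.78 CPM over the 12 epileptic libraries, so it is also uncertain. Windows were available for 5 of the 6 genes, and the best sites within them had between 10 and 12 mismatches. The study searched longer stretches upstream of the starts of annotated transcripts. Its predicted sites can thus lie outside these windows, and the mismatches given here are not those of the predicted sites.

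Libraries contained between 11839240 and 28311328 reads assigned to genes. One library stood apart from the rest. In sgKcna1 replicate 12, 41.5% of reads were not mapped, whereas the other 11 epileptic libraries had between 11.0% and 24.6%, and it had the fewest reads in genes and the fewest genes detected (20598). On the first principal component of the 2000 most variable genes, which held 47.7% of the variance, replicate 12 scored 91.7 and the others between -44.7 and 20.98. This axis followed the share of unmapped reads across the 12 libraries (Pearson r = 0.98, P = 1e-05, the smallest these permutations can give, and Spearman rho = 0.95, P = 3e-05, permutation tests). The relation was also present without the 2 libraries farthest from the median share (r = 0.91, permutation P = 0.00019), within sgLacZ (r = 0.93, exact permutation P = 0.0083, n = 6) and within sgKcna1 (r = 0.99, exact permutation P = 0.0028, n = 6). The mean share of unmapped reads was 25.2% ± 8.15 (SD, n = 6) in sgKcna1 and 18.6% ± 5.01 (SD, n = 6) in sgLacZ, a difference that missed the threshold (exact permutation P = 0.089, 0.28 when adjusted over 6 library measures). A fit with this share as a covariate is given below beside most of the results that it moved by more than 1.5 times, and beyond that fit its part in the gene results was not tested.

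**Figure D1:**
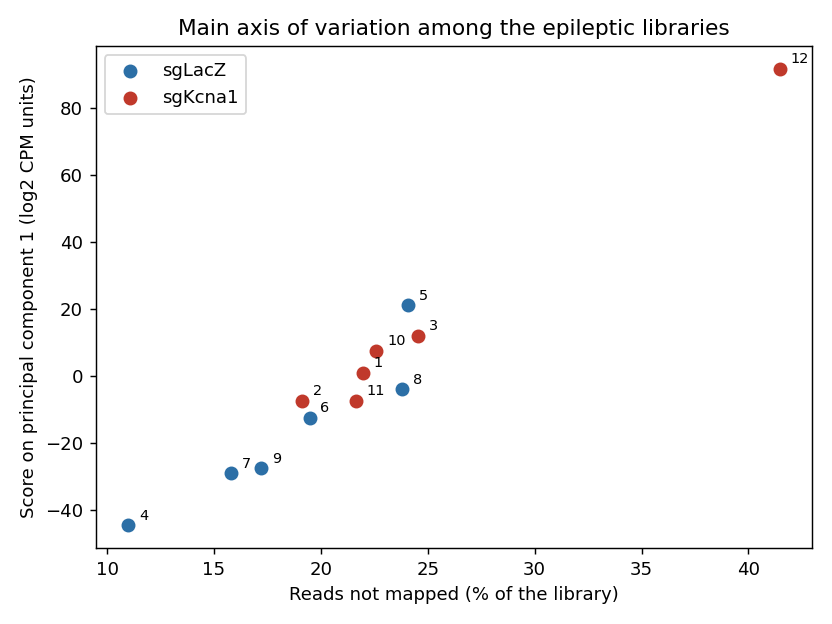
Each point is 1 of the 12 epileptic libraries, numbered by replicate, with its share of unmapped reads on the horizontal axis and its score on the first principal component on the vertical axis. sgKcna1 replicate 12 (41.5% unmapped, score 91.7) lies far from the other libraries, and sgLacZ replicate 5 (24.1%, score 20.98) is the sgLacZ library with the highest score.

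Libraries labelled sgKcna1 replicates 1, 11 and 12, and 1 sham control library, each held more than 5 CPM of both Xist, which is transcribed from the inactive X chromosome of females, and genes of the Y chromosome. In sgKcna1 replicate 1 these were 10.2 CPM of Xist and 107 CPM of Y-linked genes, in replicate 11 they were 110 and 9.76, and in replicate 12 they were 49.0 and 11.0. No sgLacZ library of epileptic mice passed 5 CPM for both, but sgLacZ replicate 8 held 4.31 CPM of Xist beside 101 of Y-linked genes. Sham control replicate 23 fell short too, with 44.4 CPM of Xist and 2.67 of Y-linked genes. Xist exceeded the Y-linked genes in 4 of 6 sgLacZ and 2 of 6 sgKcna1 libraries, so the groups also differed in the sex of the mice. Counts of genes were therefore also taken without the 4 mixed libraries and with sex as a covariate.

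Gene lists of hippocampal neurons and of neighbouring tissue were summed in each library. Summed CPM of 10 CA1 pyramidal genes ranged from 767 to 985 over the 12 epileptic libraries. Those of 18 dentate granule cell genes ranged from 755 to 948 in sgKcna1 and from 839 to 1074 in sgLacZ libraries. Those of 24 genes of neighbouring thalamus and cortex ranged from 654 to 1034 in sgKcna1 and from 606 to 888 in sgLacZ. No threshold was set, so these sums do not test the hippocampal origin of the samples.

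The targeted gene was examined first. Kcna1 (GRCm38.p6 chr6:126636463-126645801) was measured at 13.9, 15.1, 29.5, 19.5, 18.7 and 133 CPM in sgKcna1 replicates 1, 2, 3, 10, 11 and 12. In sgLacZ replicates 4 to 9 it was 56.7, 33.3, 16.9, 29.95, 18.5 and 25.3 CPM. Only replicate 12 lay above the sgLacZ range. Of the other 5 sgKcna1 libraries, replicates 1 and 2 lay below that range and the rest within it. The means were 38.2 ± 46.5 CPM (SD, n = 6) with sgKcna1 and 30.1 ± 14.5 (SD, n = 6) with sgLacZ, beside 35.1 ± 6.71 (SD, n = 5) in sham controls. The log2 fold change was 0.32 (SE 0.47, edgeR adjusted P = 0.71), and the exact permutation test on log2 CPM gave P = 0.89. When replicate 12 was left out the direction turned: the sgKcna1 mean was 19.3 ± 6.16 CPM (SD, n = 5) and the log2 fold change -0.65 (SE 0.27, edgeR unadjusted P = 0.027, adjusted P = 0.29, exact permutation P = 0.12). With all libraries and the unmapped share as a covariate it was -0.85 (edgeR adjusted P = 0.69). An increase of Kcna1 was thus not detectable in 5 of the 6 libraries, and this gene does not check their labels. In bulk tissue, the share of cells that express a transcript and its amount per cell cannot be told apart, and how much of each sample was reached by the vectors was not measured in these files.

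**Figure D2:**
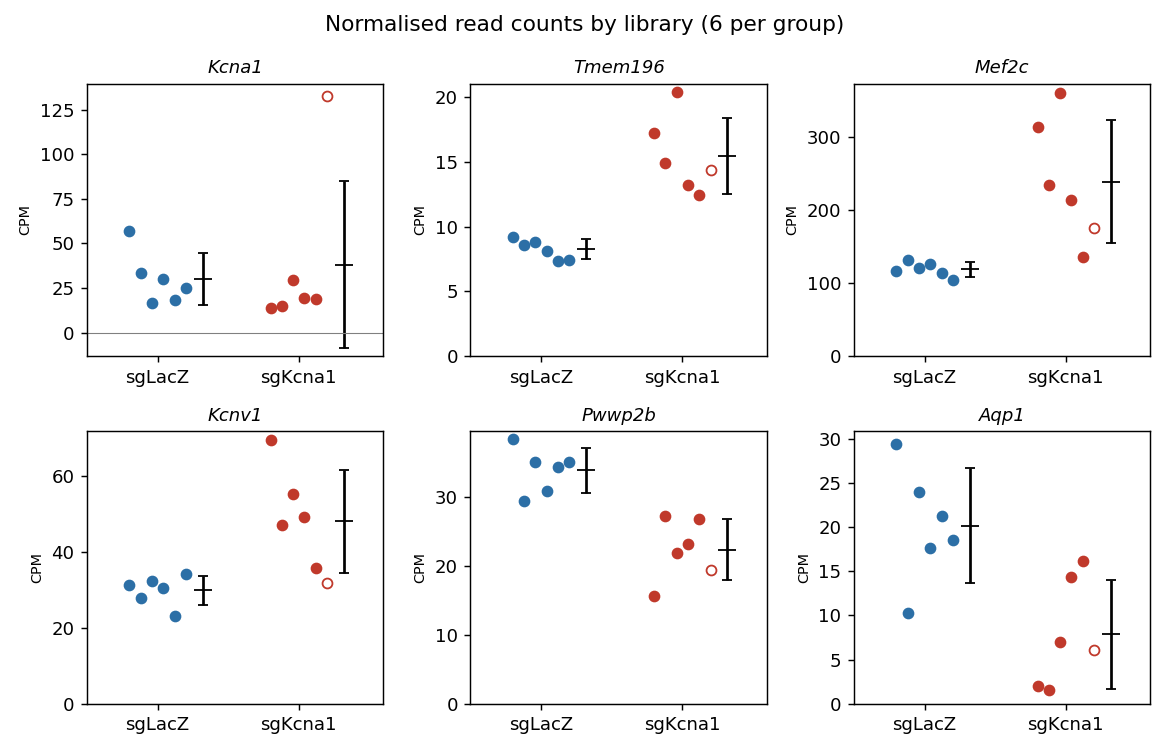
Each panel gives the TMM-scaled CPM of 1 gene in the 6 sgLacZ (blue) and 6 sgKcna1 (red) libraries, in replicate order within a group, with the mean and SD in black and sgKcna1 replicate 12 as an open circle. The Kcna1 mean of 38.2 in sgKcna1 rests on the 133 CPM of replicate 12, whereas Tmem196, Mef2c and Pwwp2b do not overlap between the groups with or without it.

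The other Kv1 genes and their partners had log2 fold changes of both signs. With or without replicate 12, those at an unadjusted P under 0.05 were all lower. None of the 21 genes tested was higher at an unadjusted P under 0.05, and 6 were lower, with a median log2 fold change of -0.03. Without replicate 12 these counts were 0 and 7, with a median of -0.08. Other fits held both directions: 3 higher and 4 lower with sex as a covariate, and 1 and 8 without sgLacZ replicate 5. The genes at that level were 28.6% of the list with all libraries and 33.3% without replicate 12. The shares over all genes were those given above, of 17615 genes tested with all libraries and 17608 without replicate 12. The median log2 fold change of all genes was -0.01 in both fits. Kcna2, a Kv1 subunit that assembles with Kv1.1 and is named here after its values were seen, averaged 189 CPM with sgKcna1 and 149.6 with sgLacZ (log2 fold change 0.34, SE 0.16, edgeR adjusted P = 0.26). Replicate 12 was its highest library, with 314 CPM against 123 to 212 CPM in the other 11. Without that library the log2 fold change of Kcna2 was 0.13. With all libraries and sex as a covariate it was 0.44 (edgeR adjusted P = 0.27). Cntnap1, which anchors the axonal membrane beside the node of Ranvier, was measured at 94.6 ± 18.2 CPM (SD, n = 6) with sgKcna1 and 147 ± 58.9 (SD, n = 6) with sgLacZ (log2 fold change -0.64, SE 0.20, edgeR adjusted P = 0.21). Its groups overlapped, with sgLacZ replicate 5 at 81.3 CPM. Kcnab2, the beta subunit Kvβ2, had a log2 fold change of -0.37 and Adam11, a membrane protein that places Kv1 channels at terminals, one of -0.59, with edgeR adjusted P of 0.21 and 0.22. Kcna3 was near the floor of detection, at 0 to 0.791 CPM with sgKcna1 and 0.346 to 4.29 with sgLacZ. With the unmapped share as a covariate the differences of these genes shrank, to log2 fold changes of 0.09 for Kcna2, -0.26 for Cntnap1, -0.17 for Kcnab2, -0.12 for Adam11 and -0.39 for Kcna3, and 1 gene of the list was higher and 1 lower at an unadjusted P under 0.05.

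Across all genes, none passed an adjusted P of 0.05 in the edgeR quasi-likelihood test, 0% of 17615 tested, and 3387 had an unadjusted P under 0.05, of which 1530 were higher and 1857 lower with sgKcna1. None of the 17608 genes (0%) passed when replicate 12 was left out, and at an unadjusted P under 0.05 there were 2679, split into 991 above and 1688 below sgLacZ. The smallest adjusted P was 0.082 with all libraries and 0.059 without replicate 12. Of the genes at an unadjusted P under 0.05, 2105 were in both fits, 62.1% of the first list and 78.6% of the second, and all 2105 had the same sign. DESeq2, the tool the study used, called 143 genes (0.812%) with all libraries and 99 (0.562%) without replicate 12, with 61 in common. The number of genes called depended on sgLacZ replicate 5. Leaving out sgLacZ replicate 5 gave 1508 genes past an adjusted P of 0.05, 8.54% of 17650, of which 757 (4.29%) were higher and 751 (4.25%) lower, and leaving out both sgLacZ replicate 5 and sgKcna1 replicate 12 gave 1186. Without the 4 libraries above 5 CPM of both Xist and Y-linked genes the test called 4 genes and had 2215 at an unadjusted P under 0.05. With sex as a covariate and all libraries it called 0 and had 3021. Differences below are therefore given as fitted values that did not pass the adjusted test unless stated.

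**Figure D3:**
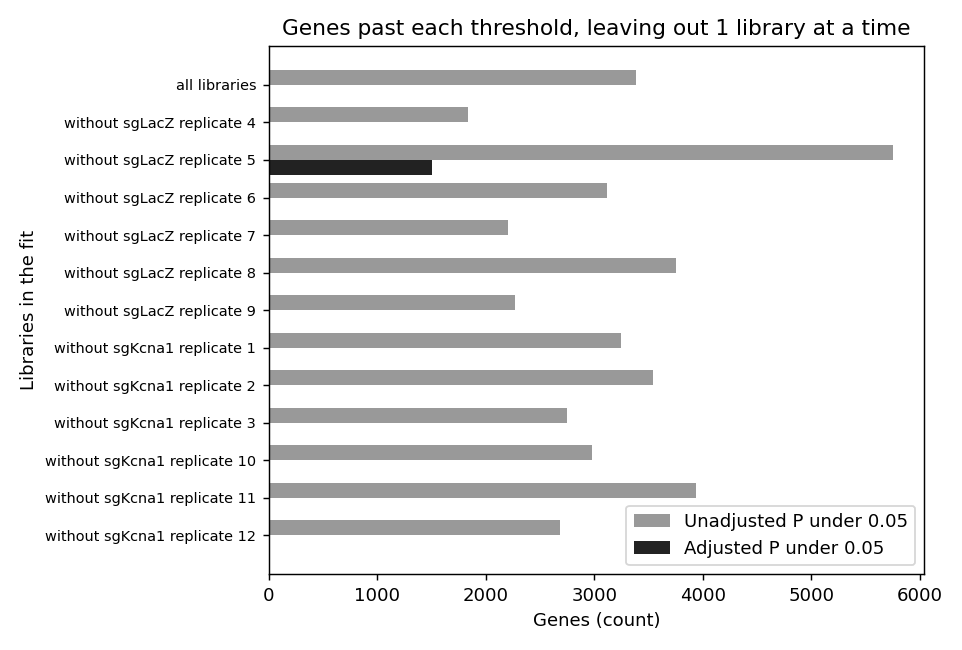
The bars give the number of genes past an unadjusted (grey) and an adjusted (black) P of 0.05 in the edgeR fit with all libraries and with each epileptic library left out in turn. Leaving out sgLacZ replicate 5 gave 1508 genes at the adjusted level, leaving out sgKcna1 replicate 12 gave none, and the unadjusted counts ranged from 1836 to 5752.

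Few genes separated the groups completely. The CPM of 42 tested genes (0.238%) lay higher in every sgKcna1 than in every sgLacZ library, and those of 43 (0.244%) lay lower. Without replicate 12, 82 genes (0.466%) lay higher and 65 (0.369%) lower. Tmem196, a membrane protein, had the smallest P of all. It was measured at 17.2, 14.9, 20.4, 13.2, 12.5 and 14.4 CPM in sgKcna1 replicates 1, 2, 3, 10, 11 and 12, and between 7.37 and 9.23 CPM in sgLacZ. Every sgKcna1 library lay above every sgLacZ library, and sham controls had 13.2 ± 2.32 CPM (SD, n = 5). Its log2 fold change was 0.90 (SE 0.14, edgeR adjusted P = 0.082; DESeq2 adjusted P = 1.3e-05), and 0.92 without replicate 12 (edgeR adjusted P = 0.059).

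Mef2c, a transcription factor that responds to calcium signals and acts on synapse number, was measured at 315, 234, 361, 214, 136 and 175 CPM in sgKcna1 replicates 1, 2, 3, 10, 11 and 12. In sgLacZ libraries it lay between 104 and 132 CPM, with no overlap, and sham controls had 134 ± 9.03 CPM (SD, n = 5). Its log2 fold change was 1.01 (SE 0.17, edgeR adjusted P = 0.12; DESeq2 adjusted P = 0.00016), and 1.08 without replicate 12 (edgeR adjusted P = 0.059). The spread within sgKcna1 was wide, since replicates 1 and 3 exceeded 300 CPM and replicate 11 lay just above the sgLacZ range. The list of MEF2 factors and the class IIa deacetylases that restrain them held 1 gene higher and 1 lower at an unadjusted P under 0.05 among 7. Its other member at that level was Mef2d, with a log2 fold change of -0.66, which shares reads between strands with an overlapping gene and is uncertain, and which was -0.15 with the unmapped share as a covariate. With that covariate the log2 fold changes of Tmem196 and Mef2c were 0.95 and 1.08. With sex as a covariate instead they were 0.92 and 0.91 (edgeR adjusted P = 0.26 and 0.27).

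Dtl, a substrate receptor of a ubiquitin ligase that acts in DNA replication, was measured at 6.12 ± 2.12 CPM (SD, n = 6) with sgKcna1 and 2.26 ± 0.66 (SD, n = 6) with sgLacZ, without overlap (log2 fold change 1.44, SE 0.26, edgeR adjusted P = 0.13; DESeq2 adjusted P = 0.00019). Other genes that lay higher in all 6 sgKcna1 libraries had smaller differences. Sept7, a septin of the cytoskeleton, had a log2 fold change of 0.38 (SE 0.08), Klhl15, a ubiquitin ligase adaptor, 0.46 (SE 0.11), and Nlk, a kinase of Wnt signalling, 0.34 (SE 0.08). Gpm6a, a neuronal membrane glycoprotein that acts in neurite outgrowth, had 1951 CPM on average with sgKcna1 and 1567 with sgLacZ, a log2 fold change of 0.32. Nrsn1, a neuronal vesicle protein, had 0.29. Each of these 5 had an edgeR adjusted P of 0.21, and with the unmapped share as a covariate Klhl15 was at 0.30.

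Kcnv1 and Tbr1 separated only when replicate 12 was left out. Kcnv1, a modulatory potassium channel subunit that alters Kv2 channels, was measured at 69.3, 47.0, 55.1, 49.0, 35.7 and 31.8 CPM in sgKcna1 replicates 1, 2, 3, 10, 11 and 12, and between 23.2 and 34.0 CPM in sgLacZ. Replicate 12 alone fell within the sgLacZ range. Its log2 fold change was 0.69 (SE 0.16, edgeR adjusted P = 0.21) and 0.78 without replicate 12 (edgeR adjusted P = 0.16; DESeq2 adjusted P = 0.00068). Tbr1, a transcription factor of glutamatergic neurons, had log2 fold changes of 0.50 and 0.60, and replicate 12 had 49.9 CPM against 71.1 to 105 in the other sgKcna1 libraries.

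Among genes lower with sgKcna1, Pwwp2b, a chromatin protein, was measured at 15.6, 27.2, 21.8, 23.1, 26.8 and 19.4 CPM in sgKcna1 replicates 1, 2, 3, 10, 11 and 12, and between 29.3 and 38.3 CPM in sgLacZ. Sham controls lay between the group means, at 28.6 ± 2.46 CPM (SD, n = 5). Its log2 fold change was -0.60 (SE 0.12, edgeR adjusted P = 0.21; DESeq2 adjusted P = 0.0087) and -0.57 without replicate 12. Shisa2, a membrane protein that restrains Wnt and FGF receptors, was measured at 4.15 ± 0.50 CPM (SD, n = 6) and 6.24 ± 0.93 (SD, n = 6), a log2 fold change of -0.59 without overlap. Fbln1, an extracellular matrix protein, had a log2 fold change of -0.64, Zswim5 -0.46, Pold1, the catalytic subunit of DNA polymerase delta, -0.48, and Ezh1, a histone methyltransferase, -0.25, and none overlapped between the groups. Without replicate 12, Gprc5c, an orphan receptor, and Glp1r, the receptor for glucagon-like peptide 1, joined them, with log2 fold changes of -0.85 and -1.61. Replicate 12 had 7.84 CPM of Gprc5c, equal to the highest sgLacZ library, and 13.6 CPM of Glp1r, against 1.11 to 3.92 CPM in the other sgKcna1 libraries. With all libraries the log2 fold change of Glp1r was -0.91, and -1.63 with the unmapped share as a covariate.

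Gene lists were compared by their counts at an unadjusted P under 0.05 and by their median log2 fold change, read against the shares over all genes given above. The level of a list in a library is the mean over its genes of log2 CPM minus the gene's mean over the 12 epileptic libraries.

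**Figure D4:**
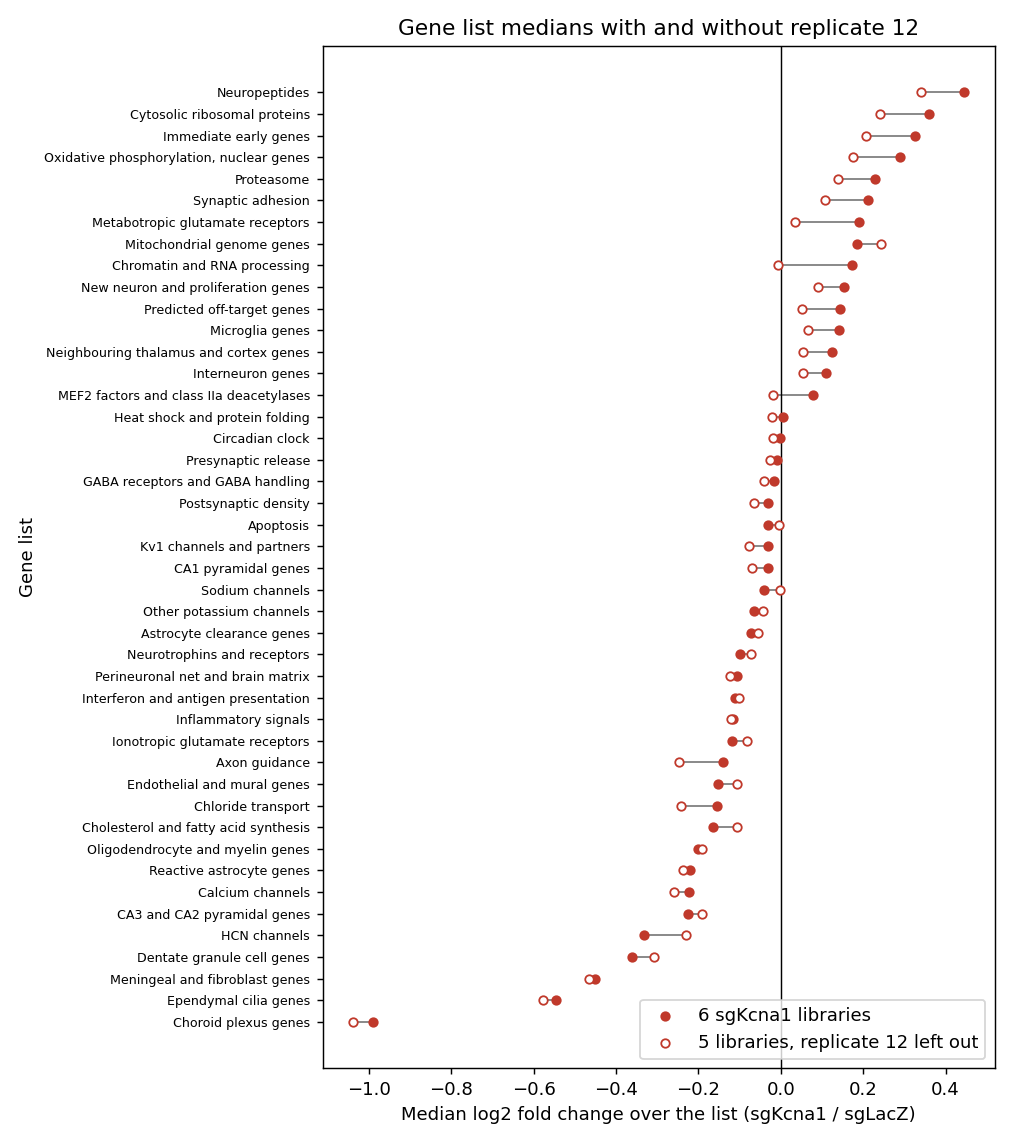
Each line is 1 of 44 gene lists, with the median log2 fold change of its tested genes with all libraries (filled) and without sgKcna1 replicate 12 (open). Neuropeptides lie highest (0.44 and 0.34) and choroid plexus genes lowest (-0.99 and -1.04), and the chromatin list crosses 0 when replicate 12 is left out.

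Signalling peptides were the list with the highest median. All 23 neuropeptide and peptide-processing genes tested had a positive log2 fold change, 12 at an unadjusted P under 0.05, with a median of 0.44. Without replicate 12, 8 genes were at that level and the median was 0.34. With the unmapped share as a covariate 7 genes were, 19 of 23 log2 fold changes were positive and the median was 0.25. Levels of the list were 0.69 in sgKcna1 replicate 1 and 0.66 in replicate 12, between -0.12 and 0.11 in the other 4 sgKcna1 libraries, and between -0.52 and 0.03 in sgLacZ libraries, so the groups overlapped. Vip, vasoactive intestinal peptide, a transmitter of interneurons that inhibit other interneurons, was measured at 37.1, 32.1, 44.1, 29.5, 23.6 and 31.0 CPM in sgKcna1 replicates 1, 2, 3, 10, 11 and 12, and between 12.8 and 25.5 in sgLacZ. Only replicate 11 fell within the sgLacZ range, and the log2 fold change was 0.76 (SE 0.16, edgeR adjusted P = 0.21; DESeq2 adjusted P = 0.0087) with it and all others, and 0.78 without replicate 12. Adcyap1, the peptide PACAP, had 14.2 ± 6.46 CPM (SD, n = 6) and 7.01 ± 1.84 (SD, n = 6), a log2 fold change of 1.02. Tac1, the precursor of substance P, had 0.88 with all libraries and 0.77 without replicate 12. Npy, neuropeptide Y, which dampens glutamate release in the hippocampus, depended more on replicate 12: it had 246 CPM there and 68.6 to 113 in the other sgKcna1 libraries, and the log2 fold change went from 0.82 to 0.47 without it and to 0.29 with the unmapped covariate. Trh, thyrotropin-releasing hormone, had a log2 fold change of 2.74 that rested on replicate 1, with 24.0 CPM against 0.233 to 1.42 in the other sgKcna1 libraries, and it was -0.006 without that library.

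Interneuron genes, a list that also holds Vip, Tac1 and Npy, had 5 genes higher and 1 lower of 25, and 4 and 1 without replicate 12, with medians of 0.11 and 0.05. Lamp5, a membrane protein of neurogliaform interneurons that cortical neurons also express, was measured at 69.4, 71.6, 104, 51.5, 34.5 and 18.1 CPM in sgKcna1 replicates 1, 2, 3, 10, 11 and 12, and between 29.6 and 38.2 in sgLacZ. Replicate 12 was its lowest library and replicate 11 lay within the sgLacZ range, and the log2 fold change was 0.81 with all libraries and 0.99 without replicate 12 (edgeR adjusted P = 0.16; DESeq2 adjusted P = 0.00068).

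Immediate early genes, which are transcribed within minutes of neuronal firing, had 11 of 30 higher and 1 lower, with a median of 0.33, and 10 higher and 2 lower without replicate 12, with a median of 0.21. The fit with the unmapped covariate gave 9 higher and none lower, with a median of 0.12. The list was unevenly distributed. Levels were 0.63 in sgKcna1 replicate 3, 0.40 in replicate 10 and 0.30 in replicate 12, but -0.34 in replicate 1 and -0.20 in replicate 11, while sgLacZ libraries ranged from -0.33 to 0.05. Ier2, a transcriptional regulator, had 48.3 CPM in replicate 3, 30.4 in replicate 12 and 13.8 in replicate 11, against 9.47 to 23.0 in sgLacZ (log2 fold change 0.88, edgeR adjusted P = 0.21). Cyr61, a secreted matrix protein, was measured at 21.8 CPM in replicate 3 and between 4.00 and 13.0 in the other 5, against 2.82 to 6.27 in sgLacZ. Btg2, an antiproliferative regulator, had 48.0 CPM in replicate 3, 30.7 in replicate 10 and 14.0 to 20.2 in the other 4, against 14.2 to 16.3 in sgLacZ. Homer1, a scaffold of metabotropic glutamate receptors, was 90.4 to 118 CPM outside replicate 12, which had 172, and 72.5 to 92.5 in sgLacZ (log2 fold change 0.47, edgeR adjusted P = 0.21; DESeq2 adjusted P = 0.049), or 0.28 with the unmapped covariate.

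**Figure D5:**
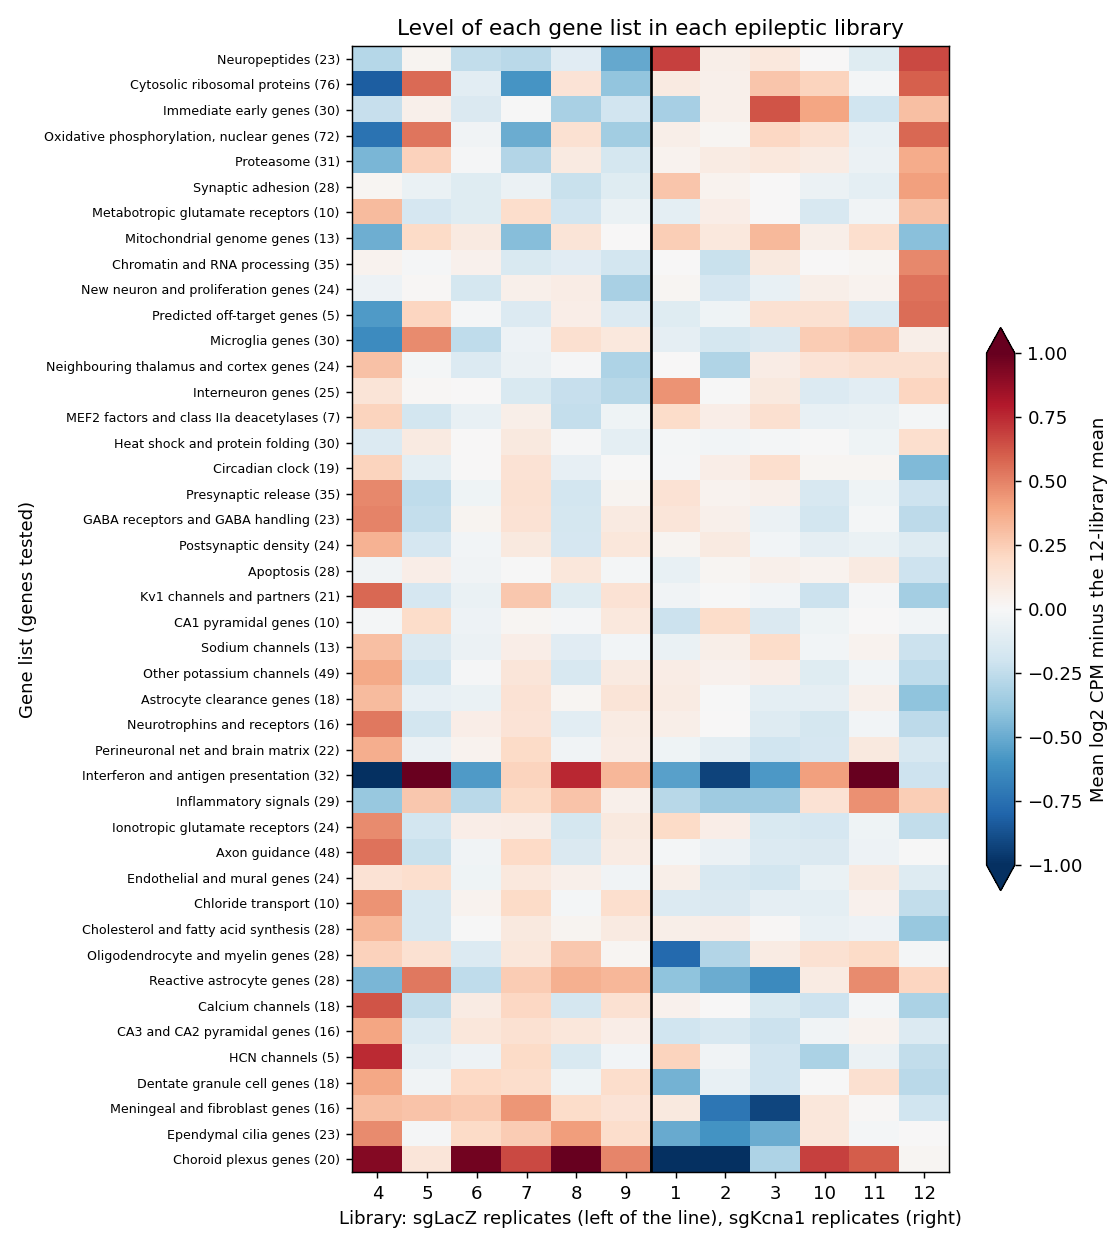
Each row is a gene list, ordered by its median log2 fold change, and each column 1 of the 12 epileptic libraries, with colour giving the level of the list on a log2 scale cut at -1 and 1. Choroid plexus and interferon genes have the widest ranges between libraries, and of the 44 lists only the meningeal list does not overlap between the groups.

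Ion channel genes were split between higher and lower. Of 49 potassium channel genes outside the Kv1 list, 6 were higher and 11 lower (8 and 9 without replicate 12), with medians of -0.06 and -0.04. With the unmapped covariate 12 were higher and 2 lower, with a median of 0.03, so the split between the directions depended on it. Of 13 sodium channel genes 3 were higher and none lower (2 and none without replicate 12). Scn2a1, a sodium channel of excitatory neurons, was highest in replicate 12 with 566 CPM. Its log2 fold change was 0.49, or 0.30 without replicate 12. Calcium channels had 3 higher and 6 lower of 18, with a median of -0.22, and 4 and 6 without replicate 12, but 3 higher and none lower with the unmapped covariate, with a median of -0.12. Cacng2, the AMPA receptor auxiliary protein stargazin, had a log2 fold change of 0.54 (0.34 without replicate 12), and Cacna1h, a T-type channel, one of -1.21, with strand-sharing reads that leave it uncertain. HCN channels, which carry the pacemaker current, had 1 lower of 5 with a median of -0.33, and none lower with a median of -0.06 with the unmapped covariate. The level of the HCN list was 0.74 in sgLacZ replicate 4 and between -0.15 and 0.19 in the other sgLacZ libraries. With the same covariate the log2 fold change of Scn2a1 was 0.20, of Cacng2 0.18 and of Cacna1h -0.28.

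Transmitter receptor lists also held genes of both directions. Ionotropic glutamate receptor genes had 2 higher and 3 lower of 24, with a median of -0.12 that became 0.06 with the unmapped covariate. Metabotropic receptor genes and their scaffolds had 1 and 1 of 10, with a median of 0.19, or 0.03 without replicate 12. With sex as a covariate 5 of these 10 were higher and 1 lower, with a median of 0.26. Gria2, the AMPA receptor subunit that limits calcium entry, had a mean of 1153 CPM with sgKcna1 and 855 with sgLacZ, and the groups overlapped (log2 fold change 0.43, edgeR adjusted P = 0.21). GABA genes had 2 higher and 5 lower of 23, 3 and 3 without replicate 12, and 4 and 1 with the unmapped covariate. Gabra2, a GABA-A receptor subunit, was at 1146 CPM in replicate 12 and 359 to 522 in the other sgKcna1 libraries, against 231 to 474 in sgLacZ, and its log2 fold change went from 0.65 to 0.27 without replicate 12. Gabrb2, another subunit, ranged from 2.52 to 8.03 CPM with sgKcna1 and from 2.82 to 69.6 with sgLacZ, where replicate 4 was highest (log2 fold change -2.28, edgeR adjusted P = 0.21; DESeq2 adjusted P = 0.04). With that covariate the log2 fold changes were 0.17 for Gria2, 0.12 for Gabra2 and -1.06 for Gabrb2. Chloride transport genes had 1 higher and 2 lower of 10, and none and 1 without replicate 12. Slc12a7, the potassium chloride cotransporter KCC4, had 3.77 ± 0.70 CPM (SD, n = 6) and 6.91 ± 2.23 (SD, n = 6), a log2 fold change of -0.88 (edgeR adjusted P = 0.21; DESeq2 adjusted P = 0.016).

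Synaptic adhesion genes had 11 higher and none lower of 28, with a median of 0.21, and 6 and none without replicate 12, with a median of 0.11. Under the unmapped covariate 5 were higher and the median was 0.10. Nrxn3, a presynaptic neurexin, had a log2 fold change of 0.72 (0.50 without replicate 12), and replicate 12 was its highest library, at 608 CPM. Presynaptic release genes had 5 higher and 2 lower of 35, and 4 and 1 without replicate 12. Syt4, a synaptotagmin of peptide vesicles, had a log2 fold change of 0.62 (0.47 without replicate 12), although some of its reads are shared between strands. Stx1a, a SNARE protein of the presynaptic membrane, had 78.4 CPM in replicate 12, below all sgLacZ libraries, and 129 to 234 in the other sgKcna1 libraries, and its log2 fold change was 0.47 with replicate 12 and 0.61 without it (DESeq2 adjusted P = 0.012). Snap25, its partner, had 2409 and 2057 CPM on average. Postsynaptic density genes had 6 higher and 7 lower of 24, 2 and 5 without replicate 12, and 2 and 1 with the unmapped covariate. Shank3, a scaffold at excitatory synapses, had a log2 fold change of -0.93 with overlapping groups, and of -0.36 with that covariate. Nrxn3 and Syt4 were then at 0.35 and 0.36. Axon guidance genes had 3 higher and 12 lower of 48, with a median of -0.14. Without replicate 12 the counts were the same and the median was -0.25, and with the unmapped covariate 3 were higher and 4 lower, with a median of -0.12. Slit1, a repellent ligand, had a log2 fold change of -0.58, and Sema3a, another, one of 1.11. Neurotrophin and receptor genes had 3 higher and 5 lower of 16, 1 and 5 without replicate 12, and none and 1 with the unmapped covariate. Nptx1, a pentraxin that clusters AMPA receptors, had a log2 fold change of -0.62. Perineuronal net and matrix genes had 1 higher and 4 lower of 22.

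Genes of the principal neurons were compared next. Dentate granule cell genes had 2 higher and 8 lower of 18, with a median of -0.36, and 2 and 6 without replicate 12, with a median of -0.31. The unmapped covariate left 1 higher and 4 lower, with a median of -0.18. Prox1, the transcription factor that specifies granule cells, was measured at 22.4, 44.0, 37.7, 47.3, 70.3 and 37.4 CPM in sgKcna1 replicates 1, 2, 3, 10, 11 and 12, and between 52.5 and 81.7 in sgLacZ. Of the 6 libraries, 5 lay below the sgLacZ range and replicate 11 within it (log2 fold change -0.60, SE 0.19, edgeR adjusted P = 0.21). C1ql2, a synaptic organiser of mossy fibres, had a log2 fold change of -0.71, whereas Calb1, the calcium buffer calbindin, had one of 0.47. CA3 and CA2 pyramidal genes had 2 higher and 2 lower of 16 (1 and 3 without replicate 12), and CA1 genes 1 and 2 of 10. New neuron and proliferation genes had 3 higher and none lower of 24, but 2 and 2 without replicate 12, whose level of the list was 0.55. Genes of neighbouring thalamus and cortex had 6 higher and 2 lower of 24, and 5 and 1 without replicate 12, with medians of 0.13 and 0.05. Foxp2, a transcription factor of thalamic and deep cortical neurons, had 9.03 ± 3.37 CPM (SD, n = 6) and 3.94 ± 1.30 (SD, n = 6), a log2 fold change of 1.18 (edgeR adjusted P = 0.21; DESeq2 adjusted P = 0.024).

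Ventricular and meningeal genes were the lists with the lowest medians, and they differed between libraries of the same group. None of 20 choroid plexus genes had a positive log2 fold change and 8 were lower at an unadjusted P under 0.05, with a median of -0.99, and the same count of 8 and a median of -1.04 were found without replicate 12. Levels were -2.20 and -3.24 in sgKcna1 replicates 1 and 2, between -0.30 and 0.68 in the other 4, and between 0.12 and 1.28 in sgLacZ. The summed CPM of the list ranged from 479 to 9380 in sgKcna1 and from 6213 to 13883 in sgLacZ. Ttr, the carrier transthyretin, named after its values were seen, was at 636 and 269 CPM in replicates 1 and 2 and between 3900 and 7618 in the other 4, against 4102 to 11136 in sgLacZ. Aqp1, the water channel of this epithelium, was at 2.02, 1.53, 7.00, 14.3, 16.2 and 6.07 CPM in sgKcna1 replicates 1, 2, 3, 10, 11 and 12, against 10.2 to 29.5 in sgLacZ (log2 fold change -1.36, SE 0.51, edgeR adjusted P = 0.21). Slc4a5 and Lbp had log2 fold changes of -1.49 and -0.98. Ependymal cilia genes had 6 lower and none higher of 23, and 11 without replicate 12, with medians of -0.55 and -0.58, and 12 with the unmapped covariate. Foxj1, the regulator of motile cilia, had 17.1 ± 7.61 CPM (SD, n = 6) and 27.9 ± 5.03 (SD, n = 6). Hydin, a ciliary protein with few reads, had a log2 fold change of -1.29 with overlapping groups. It was at 4.46 CPM in sgLacZ replicate 4 and 0.366 to 1.73 in the other sgLacZ libraries. In sgKcna1 it was at 0.582 to 0.958 CPM. Meningeal and fibroblast genes had 4 lower of 16 with a median of -0.45, and 7 with the unmapped covariate, where the median was -0.53, and that of choroid plexus genes -1.09. In the libraries, levels of the meningeal list were -0.72 and -0.92 in sgKcna1 replicates 2 and 3 and between -0.20 and 0.12 in the other 4. All lay below the sgLacZ range of 0.14 to 0.44. Slc13a4, a sulphate transporter of the meninges, had a log2 fold change of -0.71. How much of these tissues, or of neighbouring cortex and thalamus, each dissection held was not measured. Its part in the other results, including the genes that separated the groups, was not tested.

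Most genes of the glial and vascular lists did not reach an unadjusted P of 0.05. Reactive astrocyte genes had 1 higher and 3 lower of 28, and none higher and 6 lower without replicate 12, with medians of -0.22 and -0.24. Cp, ceruloplasmin, and C3, a complement component, had log2 fold changes of -0.71 and -1.18, and C3 was at 4.75 CPM in sgKcna1 replicate 11, above every sgLacZ library, and at 0.278 to 1.57 in the others. Reads of Cp are partly shared between strands. Astrocyte clearance genes had 3 lower of 18, among them Kcnj10, the Kir4.1 channel that buffers extracellular potassium, with a log2 fold change of -0.45, or -0.18 with the unmapped covariate, under which none of the list was lower. It had 176 CPM in sgLacZ replicate 4 and 67.2 to 108 in the other sgLacZ libraries. Microglia genes had 4 higher and none lower of 30, with a median of 0.14, and 3 and none without replicate 12, but 2 and 1 with the unmapped covariate, with a median of -0.021. P2ry12, the microglial ADP receptor, was at 26.4 CPM in replicate 12, just under the sgLacZ range of 26.7 to 33.0, and at 33.9 to 40.7, above that range, in the other 5 (log2 fold change 0.27, and 0.34 without replicate 12). Inflammatory signal genes had 3 higher and 6 lower of 29, and 2 and 6 without replicate 12. Il6st, the receptor subunit gp130, and Tgfbr2, a TGF-beta receptor, had log2 fold changes of -0.61 and -0.35. Oligodendrocyte genes had 4 lower of 28 and endothelial and mural genes 5 lower of 24, and each of these lists had 3 lower without replicate 12. Vwf, a product of endothelial cells, had 9.94 ± 2.29 CPM (SD, n = 6) and 18.7 ± 5.25 (SD, n = 6), a log2 fold change of -0.91 (edgeR adjusted P = 0.21; DESeq2 adjusted P = 0.04).

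Interferon and antigen presentation genes had 1 lower of 32 and varied within both groups. Their level was -1.11 in sgLacZ replicate 4 and -0.57 in replicate 6, and between 0.22 and 0.99 in the other 4 sgLacZ libraries. In sgKcna1 it was 1.23 in replicate 11 and 0.41 in replicate 10, and between -0.92 and -0.21 in the other 4. H2-Ab1, an MHC class II chain, ranged from 2.05 to 13.0 CPM and from 4.19 to 21.5.

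Ribosomal, mitochondrial and proteasomal lists had mostly positive log2 fold changes, and 75 of 76 ribosomal genes did. Cytosolic ribosomal protein genes had 14 higher and none lower of 76, with a median of 0.36. Without replicate 12 this was 4 higher with a median of 0.24. Without sgLacZ replicate 5, 40 of 76 passed an adjusted P of 0.05, all higher, beside 4.29% of all genes higher in that fit. That library had the highest level of this list among sgLacZ libraries, and leaving it out raised the median to 0.58. The level of the list was lowest in sgLacZ replicate 4 (-0.82), which had the smallest share of unmapped reads, and highest in sgKcna1 replicate 12 (0.60) and sgLacZ replicate 5 (0.56). With the unmapped share as a covariate none was higher and the median was 0.07. Rps24 and Rpl26, ribosomal proteins, had log2 fold changes of 0.63 and 0.46, and of 0.22 and 0.20 with that covariate. Nuclear genes of oxidative phosphorylation had 4 higher of 72 with all libraries, with a median of 0.29 and Atp5h, an ATP synthase subunit, at 0.58, whereas without replicate 12 none was higher and 1 lower, with a median of 0.18. With the unmapped covariate none of the 72 was at that level, 38 had a positive log2 fold change, the median was 0.0049 and Atp5h was at 0.06. Proteasome genes had 7 higher of 31, and 1 higher and 1 lower without replicate 12, and Psmc6, an ATPase of the cap, had a log2 fold change of 0.26. With the unmapped covariate none of the 31 was higher, with a median of 0.041, and Psmc6 was at 0.17. Mitochondrial genome genes had 3 higher of 13 (1 without replicate 12, and none with the unmapped covariate). Heat shock genes had 2 higher and 3 lower of 30, and Hsp90aa1, a chaperone, was at 5298 CPM in replicate 12 and 1525 to 1873 in the other sgKcna1 libraries. Its log2 fold change was 0.67, and 0.06 with the unmapped covariate. Cholesterol and fatty acid synthesis genes had 2 higher and 8 lower of 28, 1 and 2 without replicate 12, and 1 and none with the unmapped covariate. Fasn, fatty acid synthase, had a log2 fold change of -0.47 and Msmo1, a sterol oxidase, one of 0.38, which were -0.22 and 0.20 with that covariate. Apoptosis genes had 1 higher and 1 lower of 28 (none and 2 without replicate 12), and circadian clock genes 2 and 1 of 19 (2 and none without replicate 12).

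For chromatin and RNA processing genes the direction of the median depended on replicate 12, as it also did for the smaller medians of the MEF2 and heat shock lists. They had 6 higher and 2 lower of 35 with all libraries, with a median of 0.17, and 2 higher and 5 lower without replicate 12, with a median of -0.01. Their level in replicate 12 was 0.48, against -0.23 to 0.10 in the other sgKcna1 and -0.18 to 0.05 in the sgLacZ libraries. Crebbp, the acetyltransferase CBP, was at 254 CPM in replicate 12 and 62.2 to 93.8 in the other 5, and its log2 fold change went from 0.71 to 0.29 without it. Luc7l3, a splicing factor, went from 0.73 to 0.43. With the unmapped covariate the list had 1 higher and none lower, with a median of -0.0031, Crebbp was at 0.07 and Luc7l3 at 0.22.

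Replicate 12 was described by the genes in which it lay farthest from the other 11 epileptic libraries, chosen by that distance, so no test is given. Inhba, an activity-regulated subunit of activin, was at 80.5 CPM in replicate 12 and between 5.79 and 14.3 in the others. Pmepa1, an inhibitor of TGF-beta signalling, was at 205 CPM against 29.6 to 49.8, and Sox11, a transcription factor of young neurons, at 153 against 17.2 to 43.3. Zfhx3 was at 64.9 CPM against 5.52 to 16.3, and Ppargc1b, a coactivator of mitochondrial genes, at 58.0 against 5.66 to 16.3. The RNA 7SK was at 323 CPM against 13.9 to 74.3. Gm10800 was at 192 CPM against 4.29 to 55.6, and Jsrp1 at 64.7 against 3.81 to 14.0. Rps6ka4, a kinase, was at 0.467 CPM against 11.5 to 46.9, Coro1b, an actin regulator, at 1.12 against 14.7 to 54.9, and Tarbp2, a partner of Dicer, at 1.77 against 14.5 to 21.1. Sham control libraries lay between 9.74 and 16.3 CPM for Inhba and between 12.8 and 19.4 for Tarbp2, so replicate 12 stood apart from these libraries as well.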

How the data were processed

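Reads of mRNA libraries were mapped with STAR 2.7 to mm10, per the labels, and what the authors deposited are raw counts per gene for 55450 genes, as 3 columns (unstranded and either strand), with unmapped and ambiguous reads listed apart. Trimming, duplicate handling and the annotation release are not given in the sources used here. The labels and the study's methods name different kits for strand, both strands held nearly equal counts in every library, and unstranded counts were used. Genes whose strand counts added up to over 1.05 times this count were treated as sharing reads with an overlapping gene. In edgeR 4.0.16 (R 4.3.3), genes were filtered by filterByExpr, scaled by TMM and fitted in 1 quasi-likelihood model of 17 libraries and 3 groups, with Benjamini-Hochberg adjustment. DESeq2 1.42.0, limma 3.58.1 (voom with quality weights), other scalings and filters, strand sums, covariates and leaving out each library were alternatives. The scripts were tested on simulated data. A count of 3 reads was 0.106 CPM in the deepest and 0.253 in the shallowest library, which covers counting error only.

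The members and lists were chosen with earlier results of these data known. Named genes were Kcna1, the predicted off-target genes, per direction the 10 genes with the smallest P among those of at least 5 CPM on average without overlap of groups or strands (with all libraries and without replicate 12), the 3 genes with the smallest P per list in each fit, and the 8 farthest genes per direction in replicate 12. Not all of them are printed, and some are not reported here. Distances for replicate 12 used log2 CPM with a prior count of 2.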

Additional observations from a re-analysis of the deposited data

Results flagged for a closer look

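Values were examined for single libraries far from the rest of their group of 6, by the gap to the nearest library as a share of the group's range. Chance alone would give about 1 in 20 groups if the values were independent and not selected. Of 268 group tests, 33 found such a library, and 24 of the 33 concerned sgKcna1 replicate 12. The genes were chosen partly by fits with and without that library, and genes and lists vary together. These counts therefore cannot be set against the chance share. The differences between libraries were not tested further.

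In sgKcna1 replicate 12, the share of unmapped reads was 41.5%. Among genes, this library was highest in its group for Kcna1 (133 CPM), Efcab4a (10.4), Klhl15 (34.9), Gprc5c (7.84), Glp1r (13.6), Scn2a1 (566), Cacng2 (303), Gria2 (1662), Gabra2 (1146), Homer1 (172) and Npy (246). It was also highest for Rps24 (979 CPM), Atp5h (941), Hsp90aa1 (5298), Luc7l3 (532) and Crebbp (254), and lowest for Adam11 (44.5). Its list levels were 0.55 for new neuron and proliferation genes and 0.16 for heat shock genes, above the other sgKcna1 libraries. They were -0.40 for astrocyte clearance genes, -0.42 for mitochondrial genome genes, -0.38 for cholesterol and fatty acid synthesis genes and -0.44 for circadian clock genes, below the others.

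In sgLacZ replicate 4, Trh (1.74 CPM), Hydin (4.46) and Fasn (379.9) were highest and Gpm6a (1189) was lowest in the group. In sgLacZ replicate 5, Scn2a1 (325 CPM) was highest. Trh was at 24.0 CPM in sgKcna1 replicate 1, C3 at 4.75 and H2-Ab1 at 13.0 CPM in sgKcna1 replicate 11, each highest in the group, and the level of thalamus and cortex genes was lowest in sgKcna1 replicate 2 (-0.30).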

How the results depend on the processing

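No paired analysis was possible because the 2 epileptic groups share no replicate numbers. Genes past an adjusted P of 0.05 numbered 0 with all libraries, 143 with DESeq2, 12 with voom and quality weights and 1 with no filter. With single libraries left out they ranged from 0 to 1508, and of these 17 fits only the one without sgLacZ replicate 5 gave more than 5. With replicate 12 left out as well they were 99 with DESeq2 and 8 with voom. Some alternatives were chosen after seeing the data. Leaving out sgKcna1 12 and sgLacZ 5 gave 1186. Leaving out the 4 libraries above 5 CPM of both Xist and Y-linked genes gave 4. Genes at an unadjusted P under 0.05 numbered 3387 with all libraries, 5232 with no filter, 1324 with the unmapped share as a covariate and 3021 with sex as a covariate. With single libraries left out they ranged from 1836 to 5752. With replicate 12 left out they were 1531 with the unmapped covariate, 2073 with epileptic libraries only and 1384 with the sex covariate, and the added alternatives gave 5443 and 2215. The causes were not tested.

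The log2 fold change of Kcna1 was 0.32 and ranged from -0.65 to 0.62 with single libraries left out, and of these 17 fits only the one without replicate 12 gave a negative value. It was -0.31 with voom and -0.85 with the unmapped covariate. With replicate 12 left out it was -0.64 with DESeq2, -0.38 with voom, -0.52 with the unmapped covariate, -0.65 with epileptic libraries only, -0.64 with both strand counts and -0.53 with the sex covariate. Without sgKcna1 12 and sgLacZ 5 it was -0.61, and without the 4 mixed libraries -0.50. Its adjusted P lay between 0.14 and 0.83 in every one of these fits that gave one.

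Small differences also turned. Mylpf was -0.11 with voom, -0.090 with both strand counts, -0.31 with the unmapped covariate and -0.017 with the sex covariate, and with replicate 12 left out -0.068 with DESeq2, -0.14 with voom, -0.39 with the unmapped covariate, -0.077 with epileptic libraries only, -0.18 with both strand counts and -0.18 with the sex covariate, and from -0.16 to 0.13 with single libraries left out. Efcab4a was -0.19 with the unmapped covariate, and -0.20 with it and -0.031 with the sex covariate when replicate 12 was left out. Pde4b was 0.055 and 0.088 with the unmapped covariate with and without replicate 12, and from -0.089 to 0.056 with single libraries left out. With that covariate and without replicate 12, Vps16 was -0.0049 and Ubr3 0.024. Trh was -0.044 without the mixed libraries and from -0.0058 to 3.31 with single libraries left out. Of 44 list medians, 22 kept their sign in all 34 alternatives. Low depth in replicate 12 limits what can be said of genes with few reads there.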
